A study of Mus musculus with 18 samples.

Results

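All-trans retinoic acid, the natural ligand of the retinoic acid receptors (RAR), and TTNPB, a synthetic RAR agonist, were compared directly on 6 of the 18 arrays of the series, 3 per compound. The cells were NaF, a mouse mammary carcinoma line, and the RNA was measured on Affymetrix arrays. The cells of these groups were held in DMEM with 10% charcoal-treated serum, which is stripped of small lipophilic molecules, for 48 hours and then given 1 µM retinoic acid or 1 µM TTNPB for 6 hours. Charcoal-serum cells without ligand (3 arrays) were the control, and charcoal-serum cells with the PPARδ agonist GW1516 (3 arrays) and full-medium cells with or without palmitate (3 arrays each) made up the other groups. The arrays were chosen by their labels, and the comparison took in 22180 genes, each by the probe set with the highest mean over all arrays. Dose, time and serum were the same for both compounds, so this was 1 matched pair of compounds.

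Retinoic acid enters the nucleus and binds RARs. These sit with retinoid X receptors on repeated half-sites in the DNA and exchange corepressors for coactivators when a ligand binds. Among the genes they turn on are the Cyp26 enzymes, which break retinoic acid down, and the receptor Rarb itself, so the response holds both a brake and an amplifier. In TTNPB, the flexible polyene chain of retinoic acid is largely replaced by aromatic rings, and both molecules end in a carboxylic acid. Retinoic acid has also been described as a ligand of PPARδ in cells with the carrier protein FABP5, the subject named in the series title, whereas TTNPB is used as an RAR agonist.

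The values are log2 expression values, and background was the level under which 95% of 1390 olfactory and vomeronasal receptor genes lay, 1.15 with retinoic acid and 1.29 with TTNPB. Array medians over all probe sets were 1.08, 1.06 and 1.18 with retinoic acid and 1.18, 1.18 and 1.11 with TTNPB, so the groups overlapped there. Of 14 measured luminal mammary epithelial markers, 8 were above background with either compound, and their summed log2 level over the list ran from 43.0 to 44.1 with retinoic acid and from 42.8 to 44.6 with TTNPB. With retinoic acid and TTNPB, 2 and 2 of 12 immune markers were above background, 2 and 2 of 9 endothelial markers (Cdh5 and Erg, with Pecam1 at background), 2 and 2 of 8 adipocyte markers, 2 and 1 of 9 basal markers and 5 and 2 of 10 fibroblast markers. These counts use a lower background with retinoic acid (1.15) than with TTNPB (1.29). The fibroblast markers Col1a2, Col3a1 and Dpt counted with retinoic acid only. They differed by -0.04, 0.20 and 0.07 between the compounds, and none was called (limma adjusted p = 0.97, 0.785 and 0.958). The summed log2 level of the fibroblast list ran from 13.8 to 15.6 with retinoic acid and from 14.1 to 14.7 with TTNPB. The part of this list in the results was not tested. The array GW1516 replicate 3 deviated most from its group. It is in neither group, but it enters the spread that all groups share in the test, so counts are given with and without it.

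Few genes separated the compounds. With limma at a Benjamini-Hochberg adjusted p below 0.05, 34 of 22180 genes differed (0.153%), 24 of them with the higher level under retinoic acid (0.108%) and 10 under TTNPB (0.0451%). At an unadjusted p below 0.05 there were 1612 genes (7.27%), and 224 genes (1.01%) differed by at least 1.5-fold in the fitted means. All 34 were above background in both groups, and their differences ran from 0.39 to 2.02 on the log2 scale. A difference within 1.5-fold could be bounded for 18493 genes (83.4%), whose whole 95% interval lay inside that margin, and for 21793 genes (98.3%) the interval lay within 2-fold. Many of those genes are at background, and among the 10847 genes above background in both groups 7684 (70.8%) had an interval within 1.5-fold. The count of called genes rests on single arrays. It was 131 without GW1516 replicate 3 and 249 in a fit on the 6 arrays alone. It fell to 9, 13 and 21 without retinoic acid replicates 1, 2 and 3 and to 16 without TTNPB replicate 2. All 34 genes were also called without GW1516 replicate 3, and 33 of them on the 6 arrays alone. On the 12 charcoal-serum arrays 21 of the 34 were called. Lost there were Fdft1, Akap12, Epha2, Dzip1, Rmdn2, Cd200, Snora44, Ppan, Flvcr1, Klhl2, Mlxip, Krtap5-2 and 4930558J18Rik. The calls of 9 genes held with any 1 of the 6 arrays left out. After quantile normalization 27 of the 34 were called. With arrays centred on their medians 18 were, and of the 10 genes higher with TTNPB these were Snord13 and Snora75, so the calls of Eif4a1 (adjusted p = 0.248), H1f5 (0.0976), Scarna2 (0.078), Scarna6 (0.097), Fdft1 (0.396), Snora44 (0.281), Ppan (0.0738) and Rny3 (0.0803) ended under that scaling. The share of calls higher with retinoic acid was 70.6%. It was 51.4% after quantile normalization, 89.5% with arrays centred on their medians, 53.6% on the 12 charcoal-serum arrays and 56.8% with the receptor-gene median as a covariate.

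**Figure D1:**
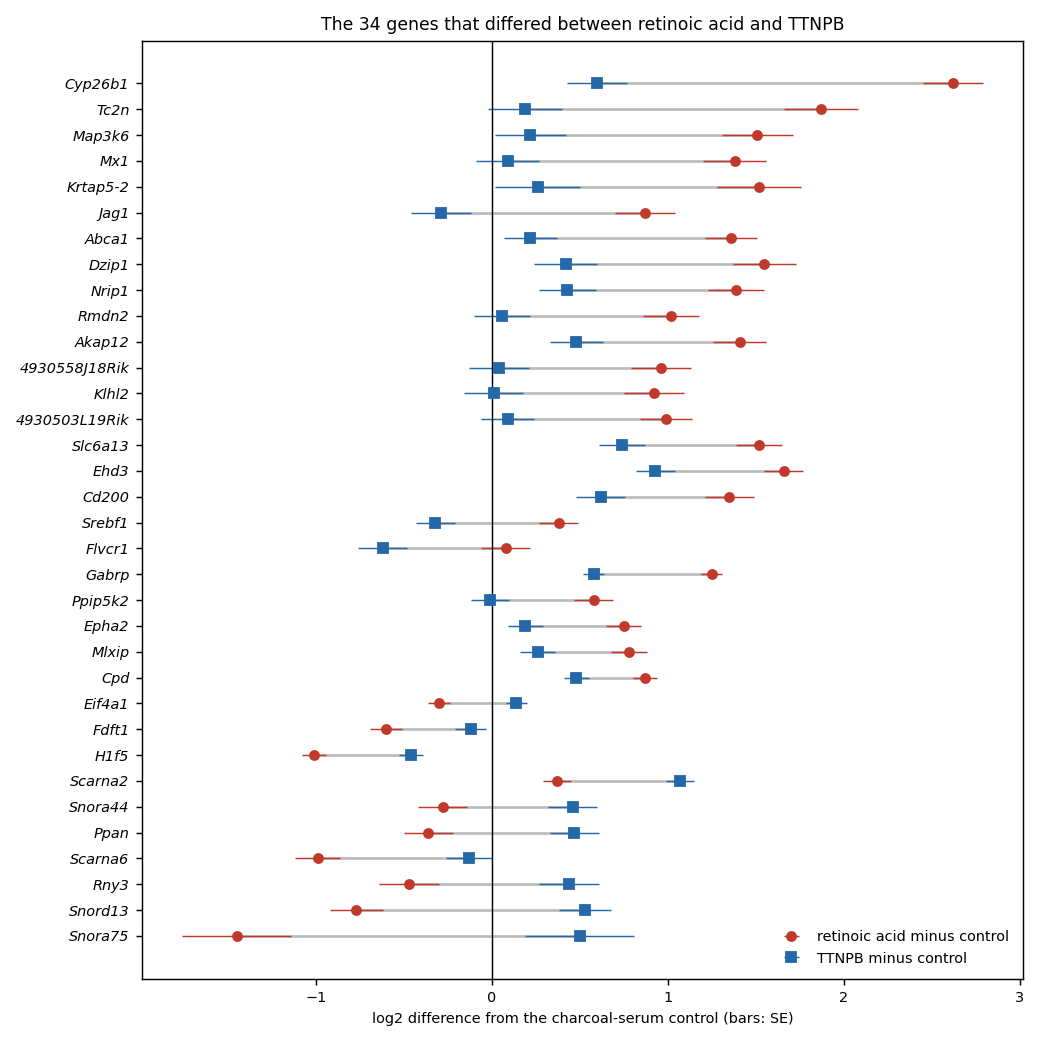
Change from the charcoal-serum control (x axis, log2 difference, bars are SE) of the 34 genes that differed between the compounds (y axis, ordered by retinoic acid minus TTNPB), circles for retinoic acid and squares for TTNPB, 3 arrays a group. Retinoic acid lay to the right of TTNPB for 24 genes, with Cyp26b1 at 2.62 against 0.60, and to the left for 10, with Snora75 at -1.45 against 0.50.

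Against the control, 1174 genes (5.29%) changed with retinoic acid, of which 848 rose (3.82%) and 326 fell (1.47%). With TTNPB 279 genes (1.26%) changed, of which 137 rose (0.618%) and 142 fell (0.64%). The share of rises with retinoic acid was 72.2%, and it was 54.7% after quantile normalization, 88.0% with arrays centred on their medians and 59.7% with the receptor-gene covariate. The retinoic acid count was 627 and 583 without retinoic acid replicates 1 and 2, 665 without control replicate 2 and 2015 without GW1516 replicate 3. The TTNPB count was 112 to 170 with any 1 of its own or the control arrays left out and 833 without GW1516 replicate 3. Both of these comparisons use the same 3 control arrays, so the values of each are only set side by side. Of the 24 genes higher with retinoic acid, 5 (Cd200, Cpd, Ehd3, Gabrp and Slc6a13) rose against control with either compound, and 17 passed the test against control with retinoic acid only, which by itself does not show a difference. For those genes the direct comparison is the test. Flvcr1 fell with TTNPB, and Srebf1 passed against control with neither compound. Of the 10 genes higher with TTNPB, Scarna2 rose and H1f5 fell with both compounds, Eif4a1, Fdft1, Scarna6, Snora75 and Snord13 passed as lower with retinoic acid only, and Ppan, Rny3 and Snora44 passed with neither.

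Cyp26b1 (chr6:84571414-84593908, GRCm38.p6), a hydroxylase that clears retinoic acid, stood farthest apart. Its log2 values were 6.21, 6.06 and 5.83 with retinoic acid, 4.15, 3.64 and 4.25 with TTNPB and 3.41, 3.10 and 3.71 in the control. Every retinoic acid array lay above every TTNPB array, and the TTNPB arrays overlapped the control. The compounds differed by 2.02 ± 0.17 (SE; 95% interval 1.66 to 2.37; adjusted p = 1.13e-05). Against control the change was 2.62 (adjusted p = 4.88e-08) with retinoic acid and 0.60 (adjusted p = 0.0969) with TTNPB. The call held with any 1 of the 6 arrays left out (adjusted p up to 0.000279). The relatives Cyp26a1 and Cyp26c1 gave no such contrast. Cyp26a1 was at background with both compounds, and Cyp26c1 differed by 0.01 (-0.23 to 0.25).

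Nrip1 (chr16:76287403-76373827), which encodes the ligand-dependent nuclear receptor corepressor RIP140, had values of 4.89, 4.91 and 4.52 with retinoic acid against 3.71, 4.07 and 3.64 with TTNPB and 3.31, 3.19 and 3.63 in the control. The retinoic acid arrays lay above all others, and the lowest TTNPB array was level with the highest control array. The difference was 0.96 ± 0.16 (adjusted p = 0.0136). It missed the threshold without retinoic acid replicate 1 (adjusted p = 0.121) or 2 (0.122) and without TTNPB replicate 1 (0.0842) or 3 (0.0784).

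Rarb, the receptor whose promoter holds the classic retinoic acid response element, read 4.28, 4.07 and 4.21 with retinoic acid, 3.29, 3.48 and 3.82 with TTNPB and 3.37, 2.77 and 2.89 in the control. The compounds did not overlap, but the difference of 0.65 (95% interval 0.29 to 1.02) did not pass (adjusted p = 0.221). Tgm2, a transglutaminase that crosslinks proteins and a long-known RAR target, passed against control with both compounds, by 0.73 with retinoic acid and 0.50 with TTNPB. Its values were 8.03, 8.20 and 8.10 against 7.80, 7.92 and 7.92, a difference of 0.23 (0.06 to 0.40; adjusted p = 0.443). Plat, the tissue plasminogen activator, was the closest match of the list. It differed by less than 0.01 (-0.46 to 0.46), with overlapping arrays. Of the 24 measured genes on a list of 27 RAR targets, 15 were above background in both groups. The number called was 2 (0.153% of all genes were), both higher with retinoic acid. The median difference was 0.02, beside -0.01 over all genes, and 18 had an interval within 1.5-fold.

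The promoters of these retinoid genes are shown for the 250 bases before the RefSeq start (GRCm38.p6, minus strand, read 5′ to 3′), because a direct repeat of half-sites with 5 bases between them (DR5) is the usual RAR element. Capitals mark half-sites on either strand, spelled AGGTCA, with G also allowed as base 1 and T as base 3, or the reverse complement. The windows are chr6:84593811-84594060 for Cyp26b1, chr16:76373828-76374077 for 1 of the 2 starts of Nrip1, and chr14:16575477-16575726 for Rarb.
Cyp26b1: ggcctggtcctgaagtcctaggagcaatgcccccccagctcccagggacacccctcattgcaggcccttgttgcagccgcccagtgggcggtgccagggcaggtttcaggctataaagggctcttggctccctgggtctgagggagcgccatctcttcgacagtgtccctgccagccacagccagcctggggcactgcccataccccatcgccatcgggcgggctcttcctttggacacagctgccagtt
Nrip1: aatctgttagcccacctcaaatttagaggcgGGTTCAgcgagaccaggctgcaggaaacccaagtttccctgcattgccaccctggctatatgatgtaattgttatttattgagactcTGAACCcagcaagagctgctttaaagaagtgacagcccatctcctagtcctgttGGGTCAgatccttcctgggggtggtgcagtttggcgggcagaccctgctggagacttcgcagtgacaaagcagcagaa
Rarb: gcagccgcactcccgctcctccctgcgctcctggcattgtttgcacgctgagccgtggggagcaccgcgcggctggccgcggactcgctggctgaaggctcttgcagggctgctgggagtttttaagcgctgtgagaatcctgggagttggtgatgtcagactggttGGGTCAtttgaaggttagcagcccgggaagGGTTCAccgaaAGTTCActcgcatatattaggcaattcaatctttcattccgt
The Rarb window holds a DR5, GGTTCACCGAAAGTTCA, at -53 to -37 from the start, while this Nrip1 window holds 3 single half-sites and the Cyp26b1 window none. The 250 bases before the other Nrip1 start (chr16:76373050-76373299) hold none either. A promoter sequence was matched for 21 of the 24 genes higher with retinoic acid (30 windows of 250 bases before to 50 after a start) and for 3 of the 10 higher with TTNPB (3 windows). None of these windows holds a repeat with 1, 2, 4 or 5 bases between half-sites, and such repeats are rare in all 20520 windows, at 0.2%, 0.0877%, 0.0439% and 0.0585%. At least 1 half-site lies in the 250 bases before the start in 13 of the 30 windows (43.3%) and in 36.2% of all windows. These matches say only which letters stand in these windows.

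**Figure D2:**
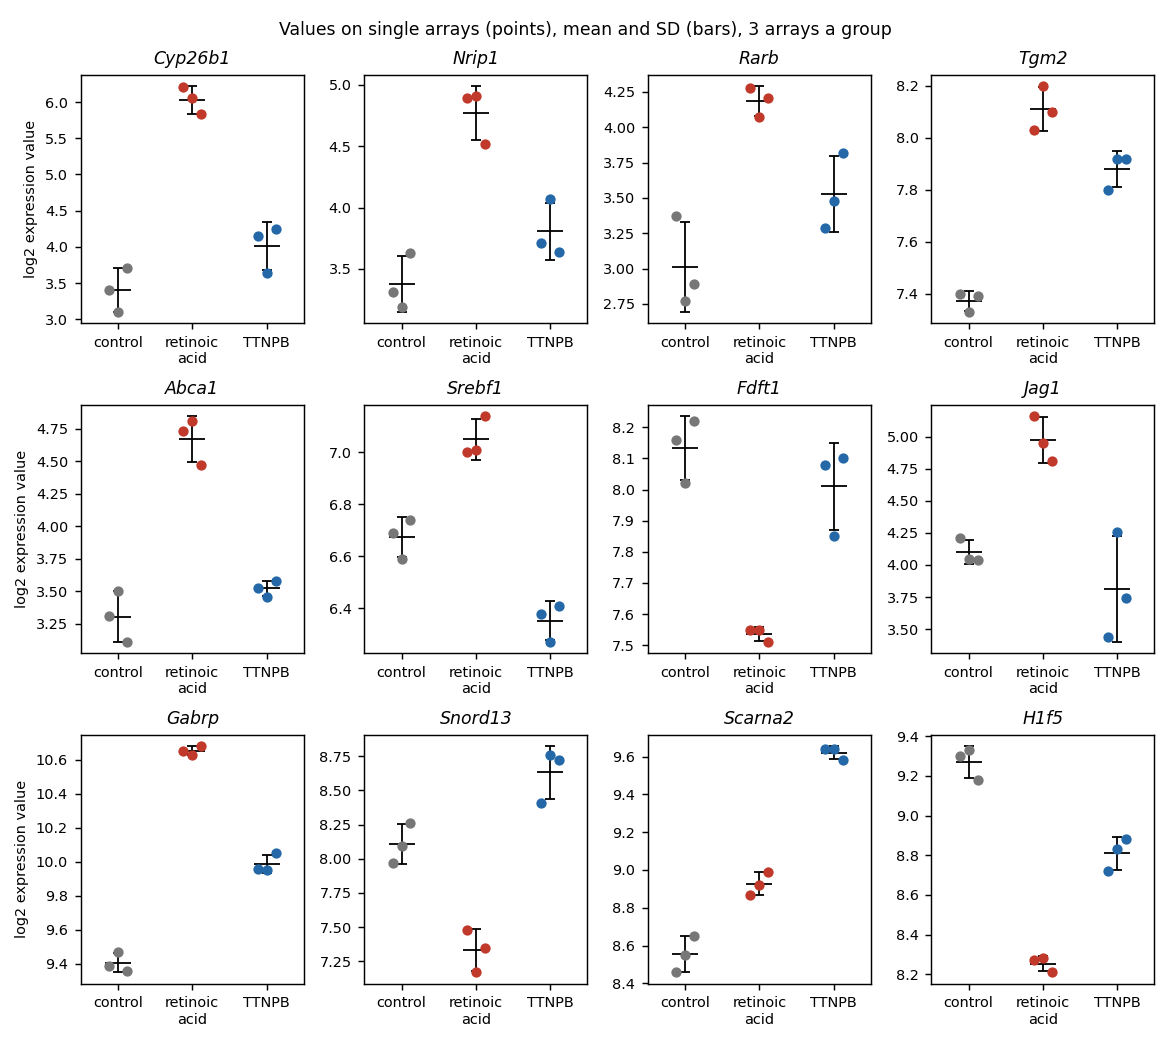
Log2 expression values (y axis, a scale for each gene) of 12 genes on the single arrays (points) of the control, retinoic acid and TTNPB groups (x axis), with mean and SD (bars), 3 arrays a group. Cyp26b1, Nrip1, Abca1 and Jag1 sit higher on all 3 retinoic acid arrays than on the TTNPB arrays, while Fdft1, Snord13, Scarna2 and H1f5 sit lower.

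Apart from Rarb, the genes encoding RARs, PPARδ and its carrier gave smaller differences, and none was called. Rara read 3.78, 3.78 and 3.84 with retinoic acid and 3.36, 3.73 and 3.76 with TTNPB, a difference of 0.18 (-0.15 to 0.52). Rarg differed by 0.12 (-0.34 to 0.59), Ppard by 0.11 (-0.21 to 0.43) and Fabp5, the carrier that hands fatty acids and retinoic acid to PPARδ, by 0.04 (-0.33 to 0.41). The interval of Rarg alone reached past 1.5-fold among these 4. Of 35 measured nuclear receptors and coregulators Nrip1 was the 1 called, 5 had an unadjusted p below 0.05 and were higher with retinoic acid (4.33% of all genes) and 1 was lower. In 12 every retinoic acid array lay above every TTNPB array (9.64% of all genes), and the median was 0.07. Of the 35 genes, 25 were above background in both groups. Among all 10847 genes above background in both, 875 had such a p with the higher level under retinoic acid. Arrays separated in that direction held for 1897 of them. An interval within 1.5-fold held for 23 (65.7%), beside 83.4% of all genes and 70.8% of those above background in both groups. Of 22 measured genes of retinoid handling, Cyp26b1 was the 1 called, and 20 had an interval within 1.5-fold. Over all genes 0.153% were called.

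Targets of LXR, the nuclear receptor that senses oxidised cholesterol, were among the genes that differed. Abca1 (chr4:53030789-53159988), the pump that passes cholesterol to lipoproteins, read 4.73, 4.81 and 4.47 with retinoic acid, 3.53, 3.46 and 3.58 with TTNPB and 3.31, 3.50 and 3.11 in the control. The retinoic acid arrays lay above all others, and the difference of 1.15 ± 0.15 (adjusted p = 0.00141) held with any 1 array left out (adjusted p up to 0.0189). The GW1516 arrays, which carry the PPARδ agonist, read 4.38, 4.34 and 3.89. GW1516 did not side with retinoic acid in all called genes. Its mean was 3.41 for Cyp26b1 (control 3.41), 3.81 for Nrip1 (TTNPB 3.81) and 6.65 for Srebf1 (control 6.67). For others, among them Ppip5k2 (6.99) and Scarna6 (6.19), it lay near the retinoic acid mean (6.90 and 6.15). A part of PPARδ in these differences was not tested. Srebf1 (chr11:60199084-60224186), the transcription factor that drives fatty acid synthesis, read 7.00, 7.01 and 7.14 with retinoic acid and 6.38, 6.27 and 6.41 with TTNPB, on either side of the control at 6.69, 6.59 and 6.74. The compounds differed by 0.70 ± 0.11 (adjusted p = 0.0106), although neither passed against control (adjusted p = 0.0663 and 0.233). This call was lost without retinoic acid replicate 1 (adjusted p = 0.0624), 2 (0.0628) or 3 (0.0648) or TTNPB replicate 2 (0.0798). Abcg1 (0.40, 0.18 to 0.63), the elongase Elovl5 (0.38, 0.15 to 0.61) and the desaturase Scd1 (0.28, 0.10 to 0.45) did not pass (adjusted p = 0.228, 0.298 and 0.321). Without GW1516 replicate 3, Elovl5 (adjusted p = 0.0264) and Scd1 (0.0155) passed and Abcg1 (0.0687) did not. Of 24 measured LXR and fatty acid synthesis genes, 2 were called (0.153% of all genes were), and the median was 0.01. An unadjusted p below 0.05 held for 6, all 6 higher with retinoic acid (4.33% of all genes). It held on that side for 875 of the 10847 genes above background in both groups, as 15 of these 24 were.

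Cholesterol synthesis lay the other way. Fdft1, squalene synthase, the first enzyme committed to sterols, read 7.55, 7.55 and 7.51 with retinoic acid, 8.08, 7.85 and 8.10 with TTNPB and 8.16, 8.02 and 8.22 in the control. It was lower with retinoic acid on every array, and TTNPB overlapped the control. The difference was -0.47 ± 0.09 (adjusted p = 0.0401), and it passed without TTNPB replicate 2 (0.0364) but not with any other of the 6 arrays left out (adjusted p from 0.125 to 0.214). Of the 19 measured genes of cholesterol synthesis and uptake, all above background, Fdft1 was the 1 called, 17 had a difference below 0, and 9 had an unadjusted p below 0.05, all lower with retinoic acid. Their median was -0.25, and it stayed below 0 at -0.19 with arrays centred on their medians and -0.30 after quantile normalization. Over all genes 0.153% were called, 11774 of 22180 had a difference below 0, and 2.94% had an unadjusted p below 0.05 on that side. The upstream enzymes Hmgcs1 (-0.67, -1.13 to -0.20; adjusted p = 0.417) and Fdps (-0.40, -0.59 to -0.22; adjusted p = 0.109) did not pass, and Fdps did without GW1516 replicate 3 (adjusted p = 0.0214). The median level of the list on single arrays was 5.10, 5.17 and 5.19 with retinoic acid and 5.33, 5.55 and 5.47 with TTNPB, which did not overlap. The control arrays, at 5.52, 5.18 and 5.60, overlapped both compounds.

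None of 25 measured genes of PPAR targets and fatty acid oxidation was called, and 23 (92%) had an interval within 1.5-fold. Over all genes 0.153% were called, so the lack of calls does not set the list apart. An interval within 1.5-fold held for 83.4% of all genes and for 70.8% of those above background in both groups. Of the 25 genes, 19 were above background in both, and the difference in shares was not tested. Plin2, which coats lipid droplets, read 7.24, 7.26 and 7.15 with retinoic acid and 6.83, 6.74 and 6.74 with TTNPB. The arrays did not overlap, and the difference of 0.45 (0.12 to 0.77) missed the threshold (adjusted p = 0.464, and 0.0591 without GW1516 replicate 3). Cpt1a, which admits fatty acids to mitochondria, differed by 0.23 (0.01 to 0.44; adjusted p = 0.639). Its levels with either compound, 6.70 to 7.16, lay under those with GW1516, 7.75 to 7.91. Angptl4 was at background with both.

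Jag1 (chr2:137081451-137116520), a ligand of Notch receptors, read 5.16, 4.95 and 4.81 with retinoic acid, 3.44, 4.26 and 3.74 with TTNPB and 4.21, 4.05 and 4.04 in the control. Retinoic acid stood above all other arrays, and TTNPB scattered around the control. The difference was 1.16 ± 0.17 (adjusted p = 0.00562), lost only without retinoic acid replicate 1 (adjusted p = 0.0624). No other of the 27 measured Notch genes was called (0.153% of all genes were), Notch2 differing by 0.51 (0.08 to 0.94; adjusted p = 0.556). Epha2, a receptor tyrosine kinase, read 6.86, 6.74 and 6.71 against 6.10, 6.26 and 6.27 (0.56 ± 0.10; adjusted p = 0.0244). Akap12, a scaffold of protein kinase A, read 5.78, 6.06 and 5.59 against 4.92, 4.92 and 4.78 (0.94 ± 0.15; adjusted p = 0.0103). The compounds did not overlap in either gene, and the kinase Map3k6 differed by 1.29 ± 0.20 (adjusted p = 0.00677). These calls were sensitive to single arrays. Epha2 was lost with any 1 of the 6 arrays left out (adjusted p up to 0.212) and with arrays centred on their medians (0.17). Akap12 was lost without retinoic acid replicate 1 or 2 or TTNPB replicate 2 or 3 (up to 0.118), and Map3k6 without retinoic acid replicate 1 or 2 or TTNPB replicate 2 (up to 0.0624).

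Gabrp, Slc6a13, Ehd3, Cpd and Cd200 were the 5 called genes that rose against control with both compounds and stood higher with retinoic acid. Gabrp (chr11:33550781-33578978), the pi subunit of the GABA-A receptor, read 10.65, 10.63 and 10.68 with retinoic acid, 9.96, 9.95 and 10.05 with TTNPB and 9.39, 9.47 and 9.36 in the control. These 3 groups formed 3 separate steps with little scatter. The difference of 0.67 ± 0.06 (adjusted p = 2.81e-05) held with any 1 of the 6 arrays left out. Slc6a13, a GABA transporter, read 6.12, 6.19 and 6.17 against 5.35, 5.40 and 5.41, with the control at 4.50 to 4.74. Ehd3, of endocytic recycling, read 8.72, 8.79 and 8.70 against 8.07, 7.95 and 8.02, with the control at 6.98 to 7.17. The same steps thus appeared in both genes, with differences of 0.78 (adjusted p = 0.0153) and 0.73 (adjusted p = 0.00677). Cpd, carboxypeptidase D, differed by 0.39 (0.25 to 0.53; adjusted p = 0.0136) and Cd200, a surface glycoprotein that restrains myeloid cells, by 0.73 (0.43 to 1.03; adjusted p = 0.0495). The calls of Slc6a13 and Cd200 were lost with any 1 of the 6 arrays left out, up to adjusted p = 0.122 and 0.258, that of Cpd with all but TTNPB replicate 1 (up to 0.122), and that of Ehd3 without retinoic acid replicate 1 or 2 or TTNPB replicate 2 (up to 0.0628). Slc6a13 (adjusted p = 0.18) and Cd200 (0.257) were also lost after quantile normalization, and Cpd (0.101) with arrays centred on their medians.

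Of the remaining genes higher with retinoic acid, Tc2n, a protein with tandem C2 domains, read 3.69, 3.27 and 2.57 against 1.54, 1.36 and 1.57. Its retinoic acid arrays were widely spread but all above the TTNPB arrays (1.69 ± 0.21; adjusted p = 0.000915), and the call held with any 1 array left out. Mx1, an interferon-induced GTPase that the reference annotates as a transcribed pseudogene in this genome, read 3.75, 3.93 and 3.68 against 2.63, 2.18 and 2.71 (1.28 ± 0.18; adjusted p = 0.00201). It was the 1 gene called of 23 measured interferon response genes (0.153% of all genes were called), whose median was 0.00. Dzip1, a ciliary protein, differed by 1.13, Krtap5-2, a keratin-associated protein, by 1.26, Rmdn2 by 0.95, and Klhl2, an adaptor of a ubiquitin ligase, by 0.91. A second probe set of Rmdn2, at background, differed by 0.03. Ppip5k2, an inositol pyrophosphate kinase, read 6.88, 7.03 and 6.81 with retinoic acid, 6.42, 6.19 and 6.36 with TTNPB and 6.93, 7.02 and 7.03 with GW1516, so its TTNPB values lay with the control (6.28 to 6.37). Mlxip (MondoA), a glucose-responsive transcription factor, differed by 0.52 (adjusted p = 0.0455). Flvcr1, a transporter of the plasma membrane, read 5.29, 5.44 and 5.26 with retinoic acid and 4.42, 4.87 and 4.61 with TTNPB, with the control at 5.18 to 5.35. Here it was TTNPB that stood below the control (-0.62; adjusted p = 0.0302), and the compounds differed by 0.70 (adjusted p = 0.0491). The provisional gene models 4930558J18Rik and 4930503L19Rik differed by 0.92 and 0.90. Ppip5k2 was lost with any 1 of the 6 arrays left out (adjusted p up to 0.299). Mlxip (up to 0.299) and Krtap5-2 (up to 0.222) passed without TTNPB replicate 3 only, Flvcr1 (up to 0.299) without TTNPB replicate 2 only, and 4930558J18Rik (up to 0.196) without TTNPB replicate 1 only. Klhl2 passed without retinoic acid replicate 3 or TTNPB replicate 2 and was otherwise lost (up to 0.22). Rmdn2 (up to 0.0818) and 4930503L19Rik (up to 0.118) were lost without retinoic acid replicate 1 or 2 or TTNPB replicate 1 or 2, and Dzip1 (up to 0.0736) without retinoic acid replicate 1, 2 or 3 or TTNPB replicate 2. Ppip5k2, Mlxip, Krtap5-2, Klhl2 and Flvcr1 were also lost under both other scalings, and 4930558J18Rik with arrays centred on their medians.

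Small nucleolar RNAs, which guide chemical modification of ribosomal RNA, and Cajal body RNAs, which do so for spliceosomal RNA, made up 5 of the 10 genes higher with TTNPB. Snord13 (chr8:31149861-31149958) read 7.48, 7.17 and 7.35 with retinoic acid, 8.41, 8.76 and 8.72 with TTNPB and 7.97, 8.09 and 8.26 in the control, so the control lay between the compounds. The difference was -1.30 ± 0.15 (adjusted p = 0.000641) and held with any 1 array left out. Snora75 (chr1:86351170-86351285) read 5.31, 5.83 and 5.24 against 6.71, 7.98 and 7.54. It gave the widest of these differences, -1.95 ± 0.31 (adjusted p = 0.00895), but it was lost without retinoic acid replicate 1 (0.0705) or 3 (0.0552) or TTNPB replicate 2 (0.0735) or 3 (0.0513). Scarna2 read 8.87, 8.92 and 8.99 against 9.64, 9.64 and 9.58, with the control at 8.46 to 8.65. It rose with both compounds and farther with TTNPB (-0.69 ± 0.08; adjusted p = 0.000912), with any 1 array left out as well but not with arrays centred on their medians (adjusted p = 0.078). Scarna6 differed by -0.86 (adjusted p = 0.00792) and Snora44 by -0.75 (adjusted p = 0.032). Scarna6 was lost without retinoic acid replicate 1 (0.0624) or TTNPB replicate 3 (0.0513), and Snora44 passed without TTNPB replicate 1 but with no other array left out (up to 0.228).

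Over all 79 measured small nucleolar and Cajal body RNAs, 70 above background in both groups, the median difference was -0.44, beside -0.01 over all genes and 0.05 over all genes above background in both. Of these RNAs 67 lay below 0 and 12 above, and for 44 every retinoic acid array lay under every TTNPB array, as it did for 6.51% of all genes. At an unadjusted p below 0.05, 32 were lower with retinoic acid and 1 was higher, beside 2.94% and 4.33% of all genes. Over all genes 0.153% were called and 11774 of 22180 lay below 0. The number called, all lower with retinoic acid, was 5, and it was 13 without GW1516 replicate 3, 25 on the 6 arrays alone and 2 with arrays centred on their medians. The median was -0.38 with arrays centred on their medians and -0.50 after quantile normalization. On single arrays the list's median level was 4.14, 4.20 and 4.05 with retinoic acid, 4.31, 4.62 and 4.76 with TTNPB and 4.38, 4.36 and 4.67 in the control. For this list the retinoic acid arrays lay under those of TTNPB and control, which overlapped each other. The GW1516 arrays, at 4.30, 4.26 and 4.20, reached down to retinoic acid, and Scarna6 read 6.13, 6.25 and 6.19 with GW1516 beside 6.13, 6.20 and 6.13 with retinoic acid. The array medians did overlap over the 80 genes that RefSeq types as small nucleolar RNAs. These medians were 3.75, 3.47 and 3.47 with retinoic acid, 3.54, 3.83 and 4.07 with TTNPB and 3.99, 3.57 and 4.37 in the control. Of these 80 genes 68 had a difference below 0. For the 478 microRNA genes measured, most at background, the median difference was -0.04.

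Small nucleolar RNAs are often processed from the introns of other genes. By RefSeq positions 62 of the 79 lay inside 1 other gene, 16 lay outside any and 1 inside several. The 48 different surrounding genes had a median difference of 0.06, none was called (0.153% of all genes were), and 38 had an interval within 1.5-fold. Among the other 10 was Haus6, around Scarna8, at 0.63 (0.30 to 0.95). Snora75, at -1.95, lies in Ncl (nucleolin), which differed by 0.17 (-0.10 to 0.44). Snora44, at -0.75, lies in Snhg12 at 0.23 (-0.10 to 0.57), and Scarna6, at -0.86, in Atg16l1 at 0.06 (-0.18 to 0.30). Of the 62, 54 had a lower difference than their surrounding gene. The median was -0.40 for those inside a gene and -0.52 for those outside, among them Snord13 and Scarna2. Each small RNA and its surrounding gene were measured by different probe sets.

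**Figure D3:**
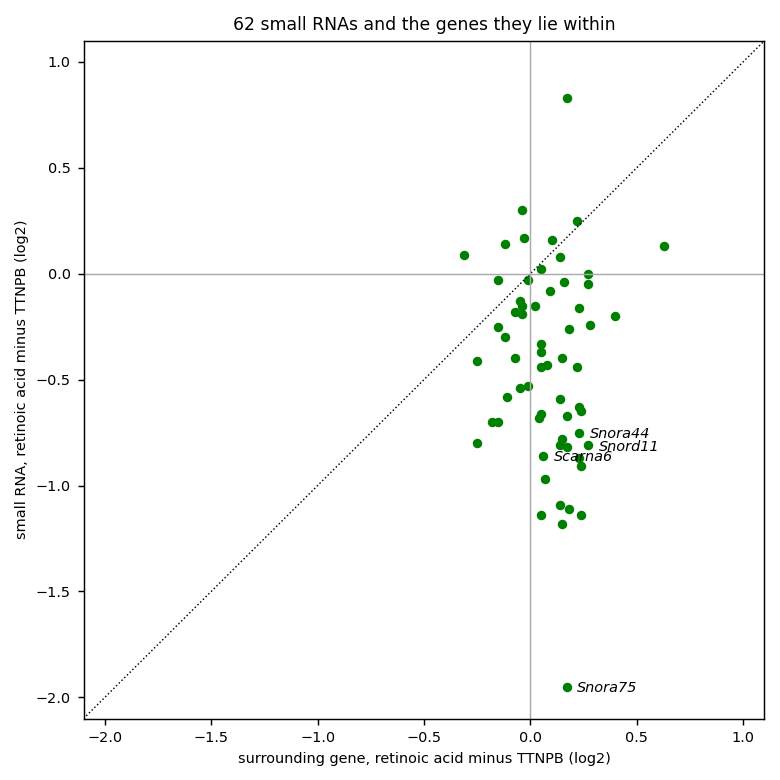
Retinoic acid minus TTNPB (log2) of 62 small RNAs (y axis) against the same difference of the gene each lies within (x axis), each point a small RNA and the dotted line equality. The points spread downward to -1.95 for Snora75 in Ncl while the surrounding genes have a median of 0.06, and 54 of 62 lie below the line.

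Beside these RNAs and Fdft1, 4 genes were higher with TTNPB. H1f5, a linker histone, read 8.27, 8.28 and 8.21 with retinoic acid, 8.72, 8.83 and 8.88 with TTNPB and 9.30, 9.33 and 9.18 in the control. It fell with both compounds, in 3 separate steps, and farther with retinoic acid (-0.55 ± 0.07; adjusted p = 0.00101), a call that held with any 1 of the 6 arrays left out and ended with arrays centred on their medians (adjusted p = 0.0976). Of 29 histone genes it was the 1 called, 25 lay below 0, and the median was -0.12. Over all genes 11774 of 22180 lay below 0, and the median was -0.01. Rny3, a Y RNA bound by the Ro protein, differed by -0.90 (adjusted p = 0.033). Eif4a1, the RNA helicase of translation initiation, read 10.78, 10.75 and 10.74 against 11.17, 11.13 and 11.30 (-0.45 ± 0.06; adjusted p = 0.000915), and Ppan, a ribosome assembly factor, differed by -0.84 (adjusted p = 0.0131). A second probe set went the other way in both genes, by 0.10 for Eif4a1 and 0.12 for Ppan. With the mean of their probe sets neither passed (adjusted p = 0.592 and 0.481). Eif4a1 held with any 1 of the 6 arrays left out but not with arrays centred on their medians (adjusted p = 0.248), Ppan passed without TTNPB replicate 1 only (up to 0.118), and Rny3 passed with none of these fits (up to 0.228). Of 67 cytosolic ribosomal protein genes none was called, and of 51 translation initiation factors Eif4a1 was the 1 called. Over all genes 0.153% were called, so 1 call or none in lists of this size says little about them.

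**Figure D4:**
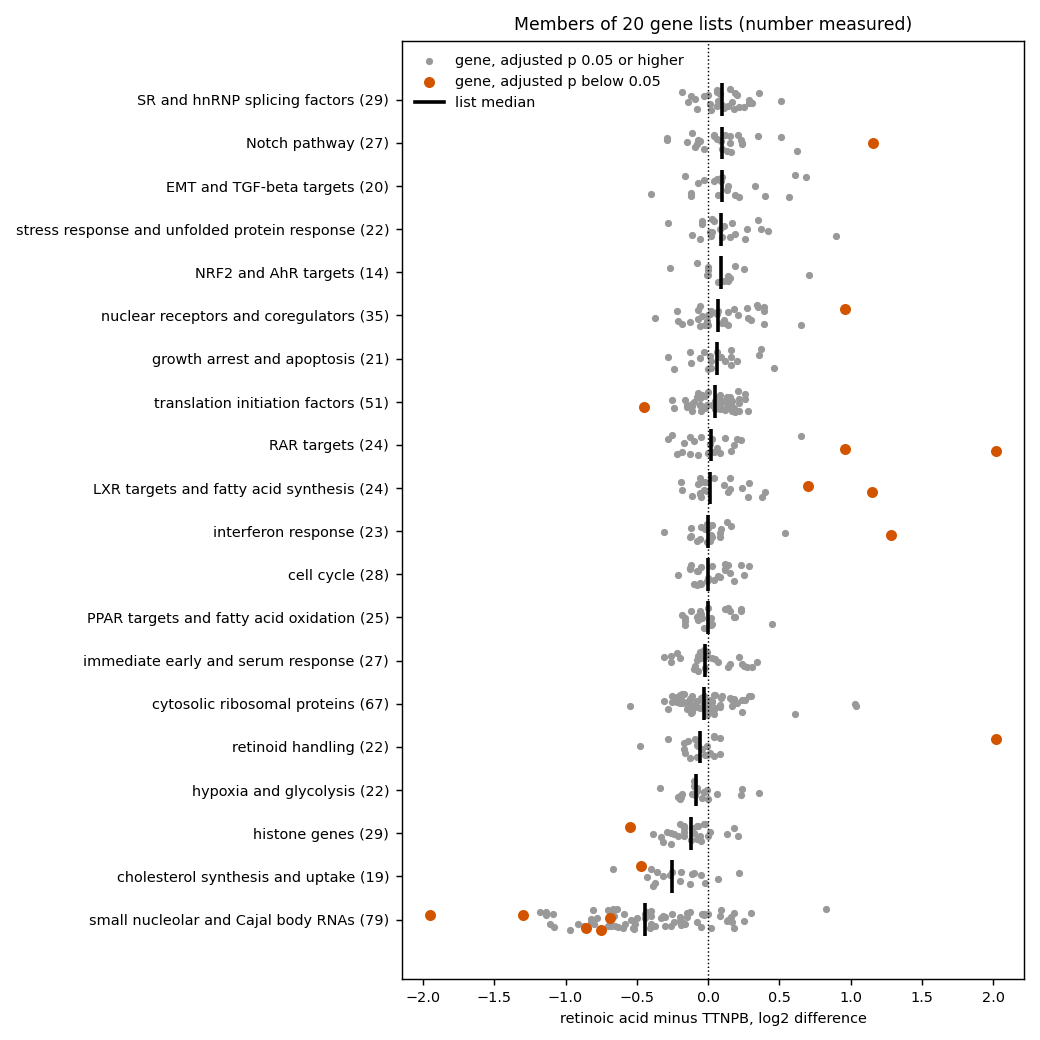
Retinoic acid minus TTNPB (x axis, log2 difference) of every measured member (points) of 20 gene lists (y axis, ordered by median, number measured in brackets), with members past adjusted p 0.05 in orange and list medians as black bars. The lowest medians are those of small nucleolar and Cajal body RNAs (-0.44) and cholesterol synthesis and uptake (-0.25), and single members such as Cyp26b1 at 2.02 stand far from the median of their list.

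Of 28 cell cycle genes, all above background, none was called, beside 0.153% of all genes. An interval within 1.5-fold held for 27 (96.4%), beside 83.4% of all genes and 70.8% of those above background in both groups. Against control 9 fell with retinoic acid (1.47% of all genes fell) and 4 with TTNPB (0.64%). Top2a was the 1 that rose with retinoic acid (3.82% of all genes rose), by 0.72 (adjusted p = 0.00214), and none rose with TTNPB (0.618%). Of 22 stress response genes none was called, 17 (77.3%) had an interval within 1.5-fold, and in 10 every retinoic acid array lay above every TTNPB array (9.64% of all genes). All 22 were above background in both groups, and of the 10847 genes that were so, 1897 had arrays separated in this direction. Atf3 read 8.32, 8.31 and 8.24 against 7.94, 7.91 and 7.98 (0.35, 0.14 to 0.57; adjusted p = 0.300), and Ddit3 (CHOP), a factor of the stress response, read 4.83, 5.05 and 4.96 against 4.97, 4.89 and 5.09. The Ddit3 arrays overlapped and differed by -0.04 (-0.35 to 0.28), with the control at 3.58 to 4.02. No gene was called (0.153% of all genes were) among 27 immediate early, 21 growth arrest, 14 NRF2 and AhR, 20 EMT and TGF-beta, 22 hypoxia and glycolysis or 29 splicing factor genes. Their intervals lay within 1.5-fold for 19 (70.4%), 14 (66.7%), 12 (85.7%), 12 (60.0%), 21 (95.5%) and 23 (79.3%) in the same order. That share was 83.4% over all genes, many at background, and 70.8% over those above background in both groups. Above background in both were 25 immediate early, 18 growth arrest and 12 EMT and TGF-beta genes. Id2, an inhibitor of differentiation factors, came nearest, at 8.79, 8.66 and 8.77 against 8.42, 8.35 and 8.24 (0.40, 0.23 to 0.57; adjusted p = 0.0522). It was under the control (9.01 to 9.07) with both, lower with TTNPB, and passed without GW1516 replicate 3 (adjusted p = 0.00707).

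Some of the genes that changed most against control had an interval within 1.5-fold between the compounds. These were chosen for that interval, so their closeness is a description. Arrdc3, an alpha-arrestin, read 7.55, 7.59 and 7.54 with retinoic acid and 7.24, 7.20 and 7.22 with TTNPB, with the control at 5.69 to 6.08. Its rises of 1.71 and 1.37 differed by 0.34 (0.11 to 0.57), and the arrays of the compounds did not overlap. It was thus within the margin but higher with retinoic acid on every array, though not called. Among genes that fell, Mfsd2a, a lysolipid transporter, read 6.73, 6.97 and 6.92 against 6.92, 6.98 and 7.12, with the control at 8.28 to 8.35. Ppp1r10, a nuclear targeting subunit of protein phosphatase 1, fell by 1.46 with retinoic acid and by 1.60 with TTNPB, a difference of 0.14 (-0.24 to 0.52). Nop2, an rRNA methyltransferase, differed by -0.10 (-0.27 to 0.08), and Akap8, a nuclear scaffold of protein kinase A, by -0.01 (-0.33 to 0.30). The arrays of the compounds overlapped in each of these 4 falling genes.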

How the data were processed

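RNA of 18 samples in 6 groups of 3 was labelled as biotinylated cRNA and hybridised to Affymetrix arrays, per the labels' protocols. The log2 values of 41345 probe sets were deposited by the authors. The submitters' processing notes name Partek, and its version and the background correction, normalization and summary are not given in the sources used here. Values of charcoal-serum and full-medium arrays lie on different scales, so no levels were compared across sera. Of the probe sets, 23521 carried 1 gene symbol, 1814 several and 16010 none. Of those with 1 symbol, 23328 were matched to RefSeq by Entrez number and took its symbol, changed or not. The 22180 genes were each taken by the probe set with the highest mean, with no filter on low values.

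The model, 1 mean per group over all 18 arrays, was run in limma 3.58.1 under R 4.3.3 (variance trend, 12 residual degrees of freedom), and 2-sided p-values were adjusted by Benjamini-Hochberg over the 22180 genes of a contrast. Named genes are those past an adjusted p of 0.05, the members of each list that passed with up to 3 further ones of smallest p, a set of 20 retinoid, PPAR and LXR genes, and 12 genes close between the compounds. Further members named from the lists illustrate counts. The members, lists and rules were chosen with earlier results of these data known, and the background definition after the data were seen. The number of arrays limits precision, and the p-values reflect no more than array-to-array spread, which may be technical, since the labels do not say whether replicates were separate cultures. The code was tested on simulated data. Promoters are RefSeq's (GRCm38.p6), of which 16918 genes matched.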

Additional observations from a re-analysis of the deposited data

How the results depend on the processing

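The direction of all 34 differences was the same in the 19 settings run, and 6 genes (Cyp26b1, Tc2n, Mx1, Abca1, Gabrp and Snord13) were called in every one. Of 2395 values recomputed for 134 named genes, 2175 stayed on their side of the threshold, 163 calls were lost, 57 were gained and no call reversed. Among the 2175, 30 values of 14 genes that were not called in either fit changed sign. Genes between the compounds (34) numbered 15 at an adjusted p below 0.01, 249 on the 6 arrays, 19 with median-centred arrays, 136 with array weights, 81 with the receptor-gene median as a covariate (chosen after seeing the data), 54 over all probe sets, and 9 to 24 with an array of the comparison left out, or 131 without GW1516 replicate 3 (chosen after seeing the data). Retinoic acid against control (1174) gave 518 at the stricter threshold, 706 at a fold of at least 1.5, 1852 on 6 arrays, 749 median-centred, 2014 with array weights, and 583 to 932 with an array left out, or 2015 without GW1516 replicate 3. TTNPB against control (279) gave 93, 164, 498, 84 and 622 in the same order, 419 after quantile normalization, 456 with dim genes left out, 763 with the covariate, and 112 to 170, or 833 without GW1516 replicate 3. Genes with an interval within 1.5-fold (18493) numbered 8863 with dim genes left out and 7378 at the narrower margin tried. The causes were not tested. With the replicate number as a block, 26 genes passed between the compounds and 1031 and 198 against control. Deviations of same-numbered arrays of the 2 compounds correlated at -0.108, -0.087 and -0.28, and those of other-numbered arrays at -0.1 to 0.185. So few values cannot tell whether the numbers pair the arrays. With 3 arrays a group the median half-width of an interval was 0.27, so smaller differences were mostly not detectable even without adjustment. The adjusted threshold was stricter. The smallest difference called was 0.39, and Rarb at 0.65 and the stress response gene Dnajb9 at 0.90 were not called. A gene that was not called may thus differ by more than 0.27. Genes at background carry no information on either compound.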

Other observations

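Probe sets outside the gene comparison also separated the compounds. Over all 41345 probe sets, 54 passed an adjusted p of 0.05, of which 27 carried 1 gene symbol and 27 carried several or none. Of the latter, 17 were higher with retinoic acid and 10 with TTNPB, and their genes are not named here.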
